A study of Homo sapiens with 3 samples.

Results

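The accessible regions of chromosomes 3 and 18 were followed cell by cell in a single pool of mesothelioma cells in which chromatin and RNA had been read from the same droplets. Members were all peaks that the deposited feature list places on either chromosome: 14899 peaks on chromosome 3 and 4744 on chromosome 18, 19643 of 215590 peaks in all. They were set against the 1893 and 781 genes of the same chromosomes among 36601 genes. Of 651860 barcodes, 8913 counted as cells: each had 1000 or more UMIs (single RNA molecules counted by their molecular tag), 1000 or more peak counts, and no more than 20% of its UMIs from mitochondrial genes. Both chromosomes were chosen by their shares of peak counts and UMIs per cell in these same data, so those shares are given as a description.

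The pool held NCI-H226, a human pleural mesothelioma line that is null for NF2, and NCI-H226_CL3, 1 clone of it made resistant to the TEAD inhibitor GNE7883 under a dose that began at 0.25 µM, was raised by 0.1 to 0.5 µM at a time and ended at 3 µM. Each was given GNE7883 or DMSO, the solvent control, and cells of the 4 conditions carried hashtag antibodies when they were combined into a pool for the 10x Genomics Multiome assay. The labels call the tissue lung epithelium and the cell type mesothelioma. No file analysed here ties a barcode to a line or a treatment, so the pool is 1 sample, every value below is a description of it, and no p-value is given. Lines and treatments cannot be told apart in any of these values. Intervals are 95% intervals for counting error only.

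A chromosome's share of a cell's ATAC counts is often read as a proxy for how many copies of it the cell carries, because transposase cuts every copy of open chromatin. A gain or loss of a chromosome or arm can move the accessibility and the RNA of its genes together and over long stretches. Regulation often acts on single genes and their elements, but it is not limited to them. Copies were not counted here. In mesothelioma the short arm of chromosome 3 is a well-known site of loss and holds BAP1, a nuclear deubiquitinase and tumour suppressor, and PBRM1, SETD2 and other chromatin regulators. NCI-H226 has been described as lacking BAP1. The long arm of chromosome 3 carries PRKCI, PIK3CA and SOX2, and chromosome 18 carries the SMAD2 and SMAD4 signal transducers of TGF-beta and the cadherin CDH2. YAP and TAZ (the gene WWTR1 on chromosome 3) drive transcription through TEAD factors, and the VGLL proteins (VGLL3 and VGLL4 on chromosome 3) bind the same factors.

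Some gene starts on these chromosomes that recur in the results are shown as sequence. Each line is the 250 bases before the start in RefSeq (GRCh38.p14), 5′ to 3′ on the gene's strand. Capitals mark the TEAD motif GGAATG or its reverse complement CATTCC, and the AP-1 motif TGANTCA. The genes were chosen after their values were seen. PBRM1 stands beside the BAP1 locus, CLSTN2 and KLHL24 had less RNA and less open chromatin in cells with a low chromosome 3 share, MME and DCBLD2 had more RNA there, and PHLPP1 was lower with a low chromosome 18 share.
PBRM1: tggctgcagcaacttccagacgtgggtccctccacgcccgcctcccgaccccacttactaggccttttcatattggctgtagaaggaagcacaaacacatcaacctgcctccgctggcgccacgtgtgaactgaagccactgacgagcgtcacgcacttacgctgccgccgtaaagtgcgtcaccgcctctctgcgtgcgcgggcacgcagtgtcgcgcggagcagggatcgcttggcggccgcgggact
CLSTN2: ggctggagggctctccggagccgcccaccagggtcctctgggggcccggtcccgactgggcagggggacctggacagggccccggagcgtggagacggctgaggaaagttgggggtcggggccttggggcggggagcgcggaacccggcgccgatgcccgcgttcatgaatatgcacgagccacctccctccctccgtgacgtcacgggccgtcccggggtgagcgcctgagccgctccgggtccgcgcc
KLHL24: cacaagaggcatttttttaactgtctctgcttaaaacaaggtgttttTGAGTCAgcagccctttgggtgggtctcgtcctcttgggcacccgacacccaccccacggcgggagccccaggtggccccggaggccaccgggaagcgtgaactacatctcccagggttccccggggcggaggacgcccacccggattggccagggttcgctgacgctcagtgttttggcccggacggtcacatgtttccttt
MME: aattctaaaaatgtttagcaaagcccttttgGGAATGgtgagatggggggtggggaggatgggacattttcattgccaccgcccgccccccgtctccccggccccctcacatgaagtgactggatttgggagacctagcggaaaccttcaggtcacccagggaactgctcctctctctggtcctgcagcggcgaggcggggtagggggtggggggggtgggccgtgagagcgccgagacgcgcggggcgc
DCBLD2: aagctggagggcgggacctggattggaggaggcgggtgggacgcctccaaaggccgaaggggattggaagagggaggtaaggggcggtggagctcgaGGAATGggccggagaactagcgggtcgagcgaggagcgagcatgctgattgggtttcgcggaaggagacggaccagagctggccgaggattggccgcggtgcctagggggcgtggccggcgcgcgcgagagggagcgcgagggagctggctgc
PHLPP1: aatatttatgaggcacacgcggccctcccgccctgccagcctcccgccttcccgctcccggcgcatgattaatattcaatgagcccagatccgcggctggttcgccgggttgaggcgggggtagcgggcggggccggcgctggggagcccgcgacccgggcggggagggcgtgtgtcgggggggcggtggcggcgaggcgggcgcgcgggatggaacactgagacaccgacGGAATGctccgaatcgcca
These windows lie at chr3:52685914-52686163 (minus strand, PBRM1), chr3:139934935-139935184 (plus, CLSTN2), chr3:183635373-183635622 (plus, KLHL24), chr3:155079422-155079671 (plus, MME), chr3:98901696-98901945 (minus, DCBLD2) and chr18:62715291-62715540 (plus, PHLPP1). MME, DCBLD2 and PHLPP1 each held 1 TEAD motif, KLHL24 held 1 AP-1 motif, and these letters were not in the PBRM1 or CLSTN2 window. Over windows of this length, searched on both strands, GGAATG was in 12.9% of 2153 starts on chromosome 3, 12.9% of 721 on chromosome 18 and 11.9% of 35116 in all. TGANTCA was in 6.36%, 8.74% and 6.57% of them. The motifs do not overlap in these windows, and a match describes letters only.

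The member peaks resembled the other peaks in width and position. The median width was 880 bp on chromosome 3, 881 bp on chromosome 18 and 880 bp over all peaks. A gene start lay within 1 kb of 26.9% of chromosome 3 peaks, 26.2% of chromosome 18 peaks and 25.4% of all peaks. No member was without counts. The median member held 82 counts on chromosome 3 and 71 on chromosome 18, against 90 over all peaks. The member with most counts on chromosome 3 was chr3:93470145-93471054, at the edge of the widest stretch without peaks and 503 kb from the nearest gene start (PROS1), with 4348 counts in 1237 cells. The other 4 of the highest 5 lay at gene starts: 4260 counts at THUMPD3-AS1, 3688 at LINC02614, 3635 at GSK3B (a kinase of Wnt signalling) and 3530 at ZBTB20 (a transcriptional repressor). On chromosome 18 the highest members were at AFG3L2, a mitochondrial protease, with 3428 counts in 1519 cells, and at TXNL4A, a splicing factor subunit, with 3326 counts in 1487 cells.

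Over the kept cells, chromosome 3 took 5.98% of peak counts and 5.501% of nuclear UMIs (UMIs of genes that are not mitochondrial), and chromosome 18 took 1.503% and 1.09%. In barcodes far below the cell limits the peak shares were close to these, at 5.99% for chromosome 3 and 1.55% for chromosome 18. Their UMI shares were lower than in the cells, at 5.14% and 0.995%. Depth was moderate: the median cell had 1524 UMIs (1000 to 13064) and 4034 peak counts (1001 to 59374). No barcode was listed more than once. The cells carried the 11 mesothelial markers, such as CALB2, WT1 and the keratins, at a summed 13568 CPM (UMIs per 1000000 nuclear UMIs), and none of these was at 0. Most of that sum came from the keratins KRT18 (4830), KRT8 (2927), KRT7 (2123) and KRT19 (2026), while CALB2 had 897, MSLN 91.8 and WT1 79.6. Epithelial markers (6 genes), immune markers (8 genes) and endothelial markers (5 genes) summed to 1.75, 9.11 and 22.7 CPM, with 1, 3 and 1 of them at 0. The epithelial list holds no keratin, so its low sum covers only its own 6 genes.

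Single cells spread more widely than counting allows on both chromosomes. The chromosome 3 share ran from 3.90% at the lowest 1% of cells through 6.01% at the median to 8.14% at the highest 1%. That of chromosome 18 ran from 0.662% through 1.498% to 2.46%. With 2 peak counts taken as 1 event, the variance was 3.22 times that of counting for chromosome 3, second of 23 chromosomes (1.44 to 3.33 over the 21 others), and 1.85 times for chromosome 18, rank 15. The spread left after counting, relative to the mean, was 11.3% for chromosome 3 (rank 7) and 14.3% for chromosome 18 (rank 3). Chromosome 3 thus ranked high in variance, and chromosome 18 in spread relative to its small share.

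**Figure D1:**
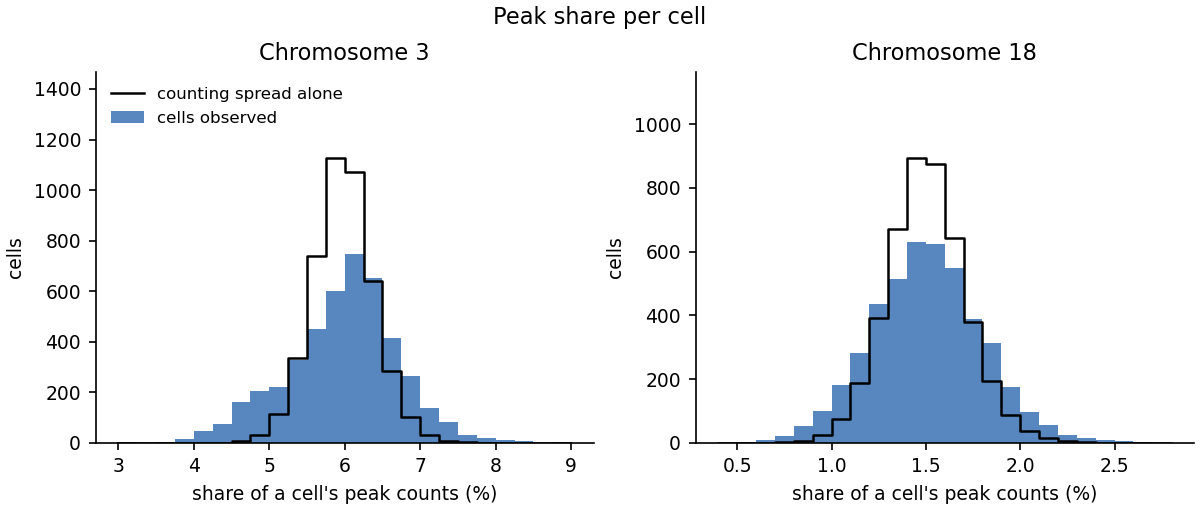
Histograms of the share of each cell's peak counts on chromosome 3 (left) and chromosome 18 (right), in percent, against the number of cells, for the 4495 cells with at least 4000 peak counts. Bars are cells observed and the black line is the spread that counting alone would give, whose variance the cells exceeded 3.22 and 1.85 times over all 8913 cells.

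Accessibility and RNA of chromosome 3 moved in the same direction across cells. Peak share and UMI share had a Pearson r of 0.331 (Spearman 0.276), second of 23 chromosomes, and for chromosome 18 r was 0.159 (Spearman 0.158), rank 13. The points share 1 pool and each cell's own depth. The correlation was higher in deeper cells: for chromosome 3 it was 0.174 in 1926 cells with 1000 to 2000 peak counts and 0.516 in 1794 cells with at least 8000. For chromosome 18 it was 0.0666 and 0.328 in the same classes. In the 1592 cells with at most 10% mitochondrial UMIs it was 0.367 for chromosome 3 and 0.0595 for chromosome 18.

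Cells were then ranked by peak share within 10 bins of depth, and the lowest and highest 25% of cells, 2230 each and called the low and the high group here, were compared in RNA. In the low group chromosome 3 held 4.93% of peak counts and 5.10% of nuclear UMIs, and in the high group 6.94% and 5.82%. The UMI ratio of low over high was 0.877 (0.871 to 0.882), beside a ratio of 0.711 in the peaks that ranked the cells. Chromosome 18 held 1.11% of peak counts and 0.999% of UMIs in its low group and 1.90% and 1.16% in its high group, a UMI ratio of 0.861 (0.849 to 0.873) beside 0.584 in peaks. Both fell together on each chromosome. The peak ratios hold the counting noise of the ranking, so their size cannot be set against that of the UMI ratios. With cells ranked by peaks in odd 1 Mb tiles, peaks in even tiles gave 0.813 on chromosome 3 beside a UMI ratio of 0.890. On chromosome 18 these were 0.804 and 0.882. Other chromosomes ranked by their own peaks gave UMI ratios of 0.821 to 0.965, so a joint fall is not confined to these 2: chromosome 18 had rank 2 and chromosome 3 rank 5 of 23 from the lowest. Cells just below and just above the lower limit had median shares of 5.41% and 5.54% on chromosome 3 and 1.26% and 1.301% on chromosome 18.

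The change ran over the whole range of cells. In 10 groups of 10% of cells each, the chromosome 3 UMI share was 4.91%, 5.19%, 5.35%, 5.45%, 5.53%, 5.60%, 5.646%, 5.651%, 5.74% and 5.97% from the lowest to the highest, and it rose at every step. The step from 5.646% to 5.651% lay within the counting intervals. That of chromosome 18 went from 0.958% to 1.19%, its largest steps being the first and the last. Some of its steps were flat within the counting intervals: groups 4 and 5 had 1.085% and 1.087%, and groups 6 and 7 both had 1.112%. In the lowest 10% the chromosome 3 peak share was 4.51%, below its UMI share of 4.91%, while in the highest it was 7.36% against 5.97%.

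**Figure D2:**
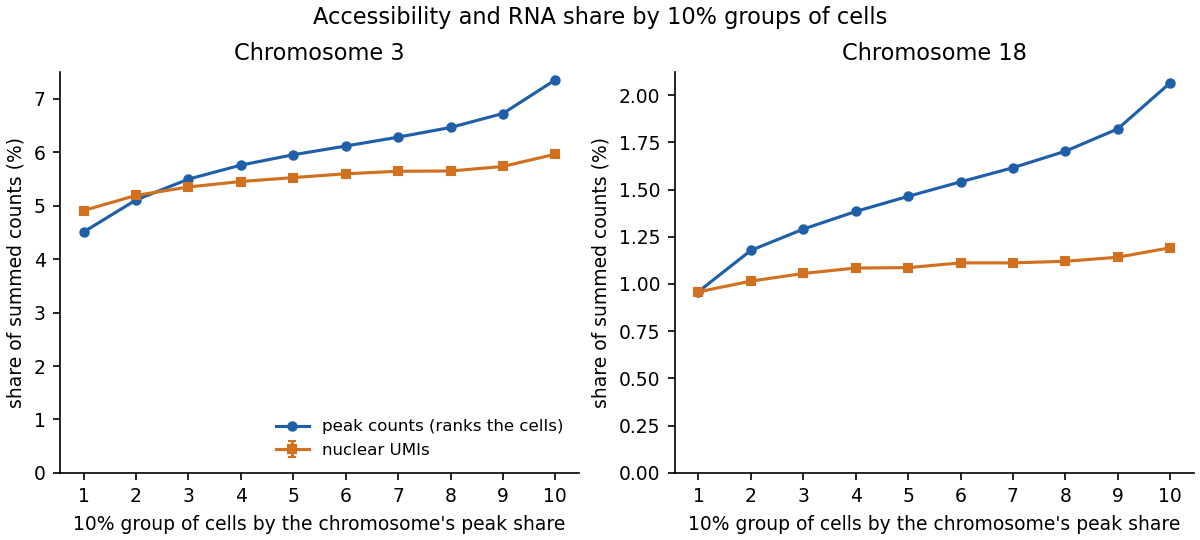
Share of summed counts in percent (vertical) in groups of 10% of cells ordered by the chromosome's own peak share (horizontal), for peak counts, which rank the cells, and for nuclear UMIs with 95% counting intervals. On chromosome 3 (left) UMIs climb from 4.91% to 5.97%, and on chromosome 18 (right) from 0.958% to 1.19%.

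Peaks that took no part in the ranking fell too. With cells ranked by peaks in odd 1 Mb tiles, the share in even tiles was 0.813 (0.808 to 0.819) on chromosome 3 and 0.804 (0.793 to 0.815) on chromosome 18, and ranked the other way 0.819 and 0.808. The arms were read in the same manner, split at the widest stretch without peaks, which spans 2.12 Mb on chromosome 3 and 5.82 Mb on chromosome 18 and is taken as the border of short and long arm. Ranked by the short arm of chromosome 3, the long arm gave 0.825 (0.820 to 0.830) in peaks and 0.883 (0.876 to 0.891) in UMIs. Ranked by the long arm, the short arm gave 0.819 (0.813 to 0.825) and 0.903 (0.894 to 0.911). On chromosome 18 the arms were less tied: ranked by the short arm the long arm gave 0.896 in peaks and 0.928 in UMIs, and the reverse gave 0.883 and 0.970 (0.945 to 0.997). Across cells the peak shares of the arms had r = 0.288 on chromosome 3 and 0.0834 on chromosome 18, where the short arm holds 1063 peaks and the long arm 3681.

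Cells with a low chromosome 3 share also tended to have a low chromosome 18 share. In the low against the high group by chromosome 3, chromosome 18 peaks had a ratio of 0.858 and its UMIs 0.902. These were the lowest of the 22 other chromosomes in both readouts, of which 9 were under 1 in each, and the next were chromosome 22 in peaks (0.934) and chromosome 11 in UMIs (0.923). Ranked by chromosome 18, chromosome 3 peaks stood at 0.901, again the lowest of 22, and its UMIs at 0.944, second to chromosome 11 (0.940). Of the low group by chromosome 3, 39.6% was also in the low group by chromosome 18, against 19.4% of the high group. The 883 cells low in both had a chromosome 3 UMI share of 4.97% and a chromosome 18 UMI share of 0.945%, and the 673 cells high in both had 5.89% and 1.18%. The shares of chromosomes 3 and 18 correlated across cells at r = 0.146, and at 0.381 in the 1794 cells with at least 8000 peak counts. In the 1592 cells with at most 10% mitochondrial UMIs r was 0.0519.

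Other features moved with the ranking. In the low and high group by chromosome 3, peaks at gene starts, those on chromosomes 3 and 18 included, took 46.3% and 45.1% of counts. The 18 S-phase genes outside both chromosomes summed to 792 and 665 CPM, and the 19 G2/M genes to 2132 and 1778. Mesothelial markers summed to 12710 and 14263 CPM, with endothelial markers at 17.7 and 25.9. Over all cells the endothelial sum of 22.7 CPM was mostly KDR (19.4), with no other member above 1.47. For the groups by chromosome 18 the S-phase sums were 799 and 690, the G2/M sums 2079 and 1814, the mesothelial sums 13029 and 14209, and the endothelial sums 14.1 and 30.4. Median depths were 4031 and 4034 peak counts in the low and high group by chromosome 3, and 1594 and 1612 UMIs. The part of these in the chromosome shares was not tested.

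Along chromosome 3 the fall in accessibility reached every 10 Mb window. Each window was read with cells ranked by the other windows of its chromosome. All 20 windows of chromosome 3 had a peak ratio whose interval lay under 1, with a median of 0.7999 (0.686 to 0.853), as did all 9 of chromosome 18, with a median of 0.782 (0.741 to 0.863). Over the windows of all chromosomes the share with such an interval was 36.9% under the chromosome 3 ranking and 37.2% under that of chromosome 18. In UMIs, 19 of 20 chromosome 3 windows and 9 of 9 chromosome 18 windows were under 1, against 36.5% and 42.8% of all windows, with median ratios of 0.885 and 0.866. Intervals lay under 1 in 18 and 9 of them (25.3% and 24.3% of all windows).

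The UMI ratio lay apart from the rest in 3 windows of chromosome 3. At 90 to 100 Mb of chromosome 3 the UMI ratio was 1.097 (1.06 to 1.14) beside a peak ratio of 0.805. There 49.5% of UMIs came from MTRNR2L12, a near-copy of mitochondrial RNA whose reads cannot be placed with certainty, at a ratio of 0.98, and DCBLD2, a membrane receptor, stood at 1.55. At 80 to 90 Mb the UMI ratio was 0.999 (0.942 to 1.06) and the peak ratio 0.686, the lowest of the chromosome. GBE1, the glycogen branching enzyme, gave 35.3% of the UMIs in that window and had a ratio of 1.47. The lowest UMI ratio, 0.750 (0.729 to 0.772), was at 110 to 120 Mb, where CCDC80, a secreted matrix protein, gave 52.0% of UMIs and fell from 1645 CPM in the high group to 1085 in the low, a ratio of 0.660. On chromosome 18 the peak ratios were 0.852 and 0.863 in the first 20 Mb and 0.741 to 0.802 beyond. The UMI ratios were 0.954 and 0.922 in the first 20 Mb and 0.792 to 0.876 beyond.

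**Figure D3:**
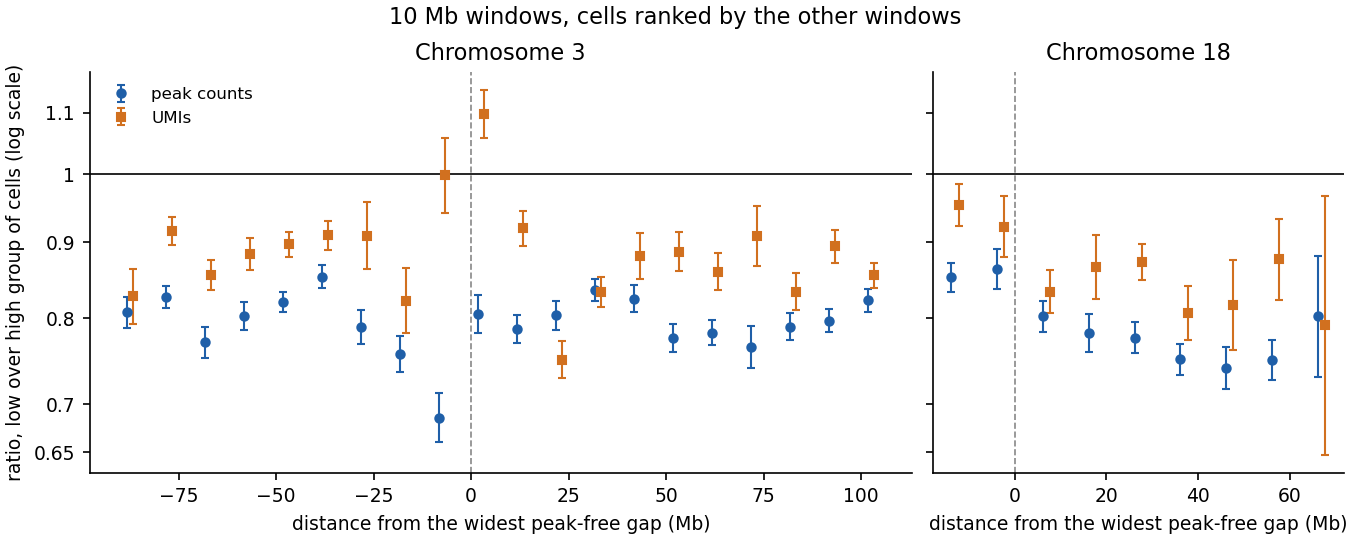
Ratio of low over high group (vertical, log scale) for each 10 Mb window of chromosome 3 (left) and chromosome 18 (right), placed by distance in Mb from the middle of the widest stretch without peaks, with 95% counting intervals. Circles are peak counts and squares UMIs, and every peak ratio lies under 1, between 0.686 and 0.863.

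At the BAP1 locus there was neither RNA nor a peak. BAP1 had 0 UMIs in the 8913 cells and 0 among all 54494965 UMIs of 651860 barcodes, which allows up to 0.210 CPM in the cells and 0.0633 in the matrix (3 counts each). Its annotated starts span chr3:52402161-52410008, inside a peak-free stretch of 42.4 kb (chr3:52385832-52428250) that also holds the start of PHF7, which was likewise at 0 UMIs. Of 14898 gaps between neighbouring chromosome 3 peaks 786 were longer, and the median gap was 5.64 kb. Of the 591 chromosome 3 genes with at least 100 UMIs in the cells, 577 (97.6%) had a peak within 1 kb of the start. Genes on both sides were expressed: WDR82, a subunit of a histone methyltransferase complex, had 861 UMIs, DNAH1 had 80, NISCH 247 and PBRM1 667. SEMA3G, just beyond the stretch, was at 0 UMIs, and STAB1 had 1.

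The window around this gap had the smallest fall in accessibility on the chromosome. At 50 to 60 Mb it had a peak ratio of 0.853 (0.839 to 0.868), and a UMI ratio of 0.910 (0.890 to 0.931). The 14 peaks within 100 kb of the BAP1 start summed to a ratio of 0.769 (0.647 to 0.914) over 2248 counts. Within 1 Mb lay 59 genes, of which 19 had enough UMIs to compare: 1 was called lower, DCAF1, a ubiquitin ligase adaptor, at 0.75, and 0 were called higher, where 6.23% and 9.88% of all 8449 genes compared were. Their median ratio was 0.955. PBRM1, a subunit of the PBAF remodelling complex, had 49.7, 42.8, 50.6 and 44.0 CPM from the lowest to the highest of the 4 groups of 25%, a ratio of 1.13 (0.910 to 1.41). The peak over its start held 795 counts in 398 cells, and had a ratio of 1.02 (0.759 to 1.36).

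Genes of both chromosomes shifted downward as a body. Comparison asked for 100 or more UMIs in the low and high group together, and a call for a ratio of 0.8 or less, or its inverse or more, whose interval excluded 1. Of 489 chromosome 3 genes, 106 (21.7%) were lower and 12 (2.45%) higher in the low group, where 6.23% and 9.88% of all 8449 genes compared were lower and higher. Of 128 chromosome 18 genes, 40 (31.2%) were lower and 3 (2.34%) higher under its own ranking, against 5.16% and 6.54% of 8378. The median ratio was 0.886 on chromosome 3, against 1.04 for genes elsewhere, and 0.862 on chromosome 18, against 1.02. A ratio under 1 was found in 365 of 489 and 105 of 128 genes, against 42.1% and 44.9% of all genes compared. UMIs are scaled to a common total, so a fall on 1 chromosome raises the remainder, but only slightly. Chromosome 3 held 5.10% and 5.82% of UMIs in its low and high group, and chromosome 18 held 0.999% and 1.16%. What else moved the medians of genes elsewhere was not tested. In the 1592 cells with at most 10% mitochondrial UMIs the calls were 17 lower and 3 higher on chromosome 3 and 3 lower and 0 higher on chromosome 18, where 8.22% and 7.09% of genes elsewhere were called in either direction. With cells ranked inside clusters drawn without these chromosomes they were 49 and 5, and 16 and 1, where 5.73% and 3.88% of genes elsewhere were called in either direction. The numbers compared on either chromosome in these settings are not given here. Whether these counts exceed the shares elsewhere therefore cannot be read from them.

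**Figure D4:**
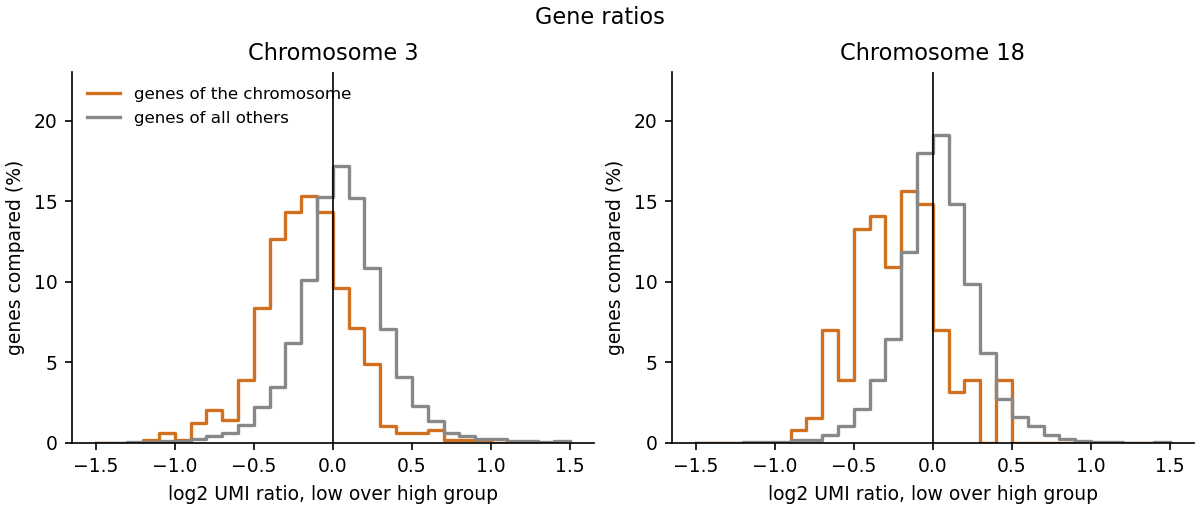
Distribution of the log2 UMI ratio of low over high group (horizontal) as percent of genes compared (vertical), for genes of chromosome 3 (left, 489 genes) and chromosome 18 (right, 128 genes) in colour and for genes of all other chromosomes in grey. The coloured curves lie to the left, with median log2 ratios of -0.17 and -0.22 against 0.06 and 0.03, and values past the axis are in the outermost bin.

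The most abundant genes of chromosome 3 encode ribosomal proteins, whose reads can be shared with processed copies elsewhere. RPL32 had 1975, 2151, 2174 and 2163 CPM from the lowest to the highest of the 4 groups of 25%. RPL15 (ratio 0.93), RPSA (0.89), RPL29 (0.89) and RPL35A (0.89) stood like RPL32 (0.91) below 1, all short of the limit for a call. On chromosome 18, RPL17 had a ratio of 0.93 and MYL12B, a myosin light chain, 0.89. CDH2, the N-cadherin of mesenchymal and mesothelial cells, had 529, 641, 663 and 671 CPM and was called lower at 0.79 (0.742 to 0.837). LMAN1, a cargo receptor of the secretory pathway, was lower at 0.72 (0.6504 to 0.790), and MYL12A, beside MYL12B, was not called at 1.07.

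The largest falls on chromosome 3 were in NLGN1, a neuronal adhesion molecule, and SLC12A8, a membrane transporter. NLGN1 had 39.9, 64.4, 78.9 and 86.6 CPM over the 4 groups, 2.17-fold lower in the low group (ratio 0.46, 0.376 to 0.562). SLC12A8 had 99.6, 158, 162 and 212, 2.13-fold lower (ratio 0.47, 0.414 to 0.533). Both rose at each step. PLXNB1, a semaphorin receptor (2.07-fold), CLSTN2, a calsyntenin (2.07-fold), KLHL24, a ubiquitin ligase adaptor (1.88-fold), and PLD1, a phospholipase (1.83-fold), were also lower. MYH15, SOX2-OT, PEX5L and HMCES, a shield of abasic DNA sites, were lower by 1.82-, 1.81-, 1.81- and 1.78-fold. SOX2-OT spans SOX2 on the same strand, so reads between them may be shared.

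Accessibility near these 10 genes had ratios under 1, as did every 10 Mb window of the chromosome (0.686 to 0.853). Such a fall is not particular to them: peaks near GNB4, whose RNA was higher in the low group, gave 0.705. The share over all genes of the chromosome was not computed. In peaks from 10 kb before to 10 kb after the annotated start span, with cells ranked by all other chromosome 3 peaks, NLGN1 had a ratio of 0.685 (0.622 to 0.754), SLC12A8 0.742, PLXNB1 0.665 and KLHL24 0.656. For HMCES it was 0.913 (0.747 to 1.12) and for MYH15, on 45 counts, 0.400 (0.0916 to 1.39), both with intervals that include 1. The peak over the CLSTN2 start shown above held 351 counts in 192 cells, with 5.80 peak CPM (counts per 1000000 peak counts) in the low and 9.77 in the high group, a ratio of 0.593 (0.379 to 0.916). That over KLHL24 held 1151 counts and gave 18.6 and 28.0, a ratio of 0.666 (0.520 to 0.851).

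A few chromosome 3 genes went the other way. MME, the membrane peptidase neprilysin, had 48.6, 31.7, 24.9 and 25.1 CPM over the 4 groups, a ratio of 1.94 (1.5 to 2.52), and was high in the lowest group. GNB4 (1.84), a G protein subunit, SGO1 (1.67), the guardian of centromeric cohesion, and the unnamed transcript AC026316.5 (1.61) were higher too. ALS2CL (1.58), TXNRD3 (1.56), POLQ (1.47), a DNA repair polymerase, and COL8A1 (1.46) rested on 206 to 355 UMIs each. DCBLD2 rested on more: 414, 307, 286 and 267 CPM, a ratio of 1.55 (1.43 to 1.68). GBE1 had 276, 205, 202 and 187, a ratio of 1.47 (1.34 to 1.63). The peak over the MME start shown above was also more open, with 11.6 peak CPM in the low and 7.04 in the high group, a ratio of 1.65 (1.11 to 2.47), although the 10 peaks around the annotated starts of MME gave 0.977. The DCBLD2 start gave 0.897 (0.748 to 1.07), and for GNB4 the nearby peaks gave 0.705 while its RNA was higher.

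On chromosome 18 the largest falls of single genes were smaller, among 128 genes compared against 489 on chromosome 3. Its median ratio was the lower of the pair, at 0.862 against 0.886. MYO5B, a motor of membrane recycling, had 48.7, 64.97, 70.3 and 87.7 CPM over the 4 groups by chromosome 18, 1.80-fold lower in the low group (ratio 0.55, 0.459 to 0.669). PHLPP1, a phosphatase of AKT, had 73.9, 89.3, 104 and 126, 1.70-fold lower (ratio 0.59, 0.503 to 0.685). Each rose at every step. The peak over the PHLPP1 start shown above held 1811 counts and gave 31.3 and 39.6 peak CPM, a ratio of 0.791 (0.649 to 0.962). AP000829.1, C18orf21, B4GALT6, ARHGAP28, CTIF, CHMP1B, PSTPIP2 and RBBP8 were lower by 1.53- to 1.66-fold. Higher were TGIF1, a repressor of TGF-beta signalling (1.36, 1.01 to 1.83), PTPRM, a receptor phosphatase (1.35), and LAMA1, a laminin chain (1.33). All of them start on the short arm. TUBB6 (1.18) and MIR924HG (1.15) were higher by less than the limit for a call. Peaks around TGIF1 gave 0.809 (0.717 to 0.913) although its RNA was higher.

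Among suppressor genes of the short arm of chromosome 3, 15 of 22 could be compared, 3 were lower and 0 higher, with a median ratio of 0.889. That is near the share of all chromosome 3 genes compared (21.7% lower, median 0.886), where all genes had 6.23% lower and 9.88% higher. SETD2, the histone H3 lysine methyltransferase, was lower at 0.78 (0.694 to 0.881), from 172 CPM in the high group to 134 in the low. ROBO1, an axon guidance receptor, was lower at 0.68 (0.600 to 0.776), and FANCD2, of the Fanconi DNA repair pathway, at 0.77. FOXP1, the most abundant of the list, stood at 0.90 and SMARCC1 at 0.89, neither called. FHIT had 196 UMIs and was not compared, and the peaks near its starts gave 0.652 (0.585 to 0.726).

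Among drivers of the long arm, 17 of 21 were compared, 7 were lower and 0 higher, with a median of 0.864, beside 21.7% lower on chromosome 3 and 6.23% lower and 9.88% higher over all genes. PRKCI, an atypical protein kinase C of cell polarity, had 341, 419, 453 and 502 CPM, a ratio of 0.68 (0.632 to 0.730). TFRC, the transferrin receptor, had 297, 384, 402 and 445, a ratio of 0.67 (0.618 to 0.721). Both were lowest in the lowest group and rose at every step. PLD1, OPA1 (0.75), SENP2 (0.74), BCL6 (0.69) and DCUN1D1 (0.79) were the other lower members. PIK3CA, the catalytic subunit of PI3 kinase, stood at 1.12 (0.850 to 1.491) and LPP at 0.96. SOX2 had 11 UMIs and TP63 had 4.

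For Hippo, MAPK and adhesion signalling on chromosome 3, 19 of 22 genes were compared, 4 were lower and 0 higher, with a median of 0.916. This too is near the chromosome's 21.7% lower, where all genes had 6.23% lower and 9.88% higher. VGLL3 had 124, 144, 166 and 176 CPM, a ratio of 0.70 (0.623 to 0.795), and rose at every step. NCK1, an adaptor to the actin machinery, was lower at 0.72 and ARHGEF3, a guanine nucleotide exchange factor, at 0.73. WWTR1, which encodes TAZ, had 56.5, 55.0, 58.7 and 57.7 CPM, a ratio of 0.98 (0.805 to 1.19), while its nearby peaks gave 0.723 (0.601 to 0.869). VGLL4 stood at 0.95 (0.837 to 1.08) and DLG1, the most abundant member, at 0.88.

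On chromosome 18 calls went both ways, beside 31.2% lower and 2.34% higher over its own genes and 5.16% and 6.54% over all genes. Of the suppressor and TGF-beta genes 9 of 14 were compared, 4 were lower and 2 higher, with a median of 0.760. PHLPP1 and RBBP8, a DNA end resection factor (0.65), PTPN2 (0.74) and MBD2 (0.76) were lower, TGIF1 and PTPRM higher, and SMAD2 (0.86) and SMAD4 (0.84) were not called. Of the survival and growth genes 16 of 18 were compared and 4 were lower, NPC1 (0.71), TXNL1 (0.76), VAPA (0.79) and MALT1 (0.80), with a median of 0.899. Of the adhesion and matrix genes 6 of 13 were compared, CDH2, LAMA3 (0.76) and DSC3 (0.71) were lower, and LAMA1 was higher, with a median of 0.798.

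Single peaks were lower far more often than higher. Each was read with cells ranked by tiles it did not belong to, and needed 100 or more counts in the low and high group together. On chromosome 3, 646 of 3658 were lower and 34 higher, where 5.75% and 9.07% of all 60285 peaks compared were lower and higher. On chromosome 18, 164 of 966 were lower and 4 higher, against 4.33% and 6.26% of 59829. On chromosome 3, 18.5% of peaks within 1 kb of a gene start and 17.1% of the others were lower, where peaks of other chromosomes had 3.42% and 5.98%. On chromosome 18 the shares were 18.6% and 15.8%, against 2.98% and 4.86% elsewhere, and no difference between these was tested. The lowest, chr3:13431028-13431998, 10.7 kb from the start of NUP210, had 33 and 137 counts, a ratio of 0.241 (0.132 to 0.418). The peak at the start of AGTR1, the angiotensin receptor, had 23 and 77. The highest, chr3:13504220-13505086, 22974 bp from the start of HDAC11, had 88 and 29.

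Clusters drawn from the peaks of all other chromosomes differed in both shares, and no cluster is named. Of 7 clusters, cluster 2, with 1293 cells (14.5%), had the lowest share in both readouts of both chromosomes. Its chromosome 3 share was 5.10% (5.07 to 5.12) of peak counts and 5.04% (5.01 to 5.07) of UMIs, whereas the other clusters of at least 100 cells lay between 6.03% and 6.47% and between 5.498% and 5.96%. Its chromosome 18 share was 1.242% (1.231 to 1.252) and 0.968% (0.955 to 0.980), against 1.52% to 1.67% and 1.098% to 1.21%. Of its cells 68.1% were in the low group by chromosome 3 and 56.1% in that by chromosome 18. Its median depth was 4424 peak counts and 1844 UMIs, against 3655 and 1372 in cluster 1, the largest with 5371 cells. Clusters 3 to 7 had medians of 5114.5 to 5991 peak counts and 1429 to 2417.5 UMIs. S-phase genes summed to 845 CPM in cluster 2 (425 to 965 in the 6 others), G2/M genes to 2290 (1005 to 2481) and mesothelial markers to 11824 (12218 to 16705).

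**Figure D5:**
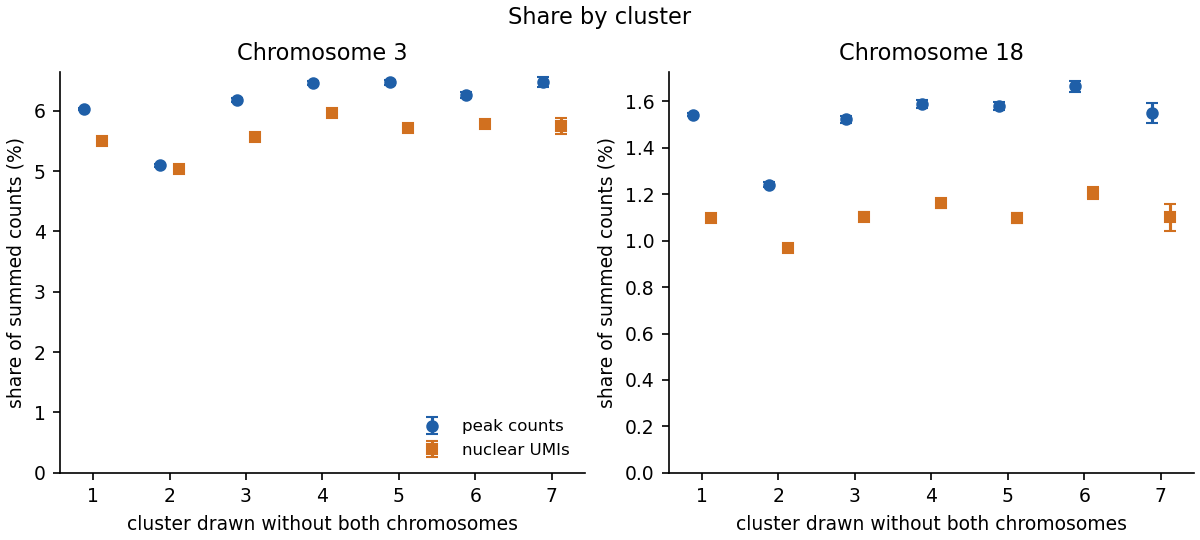
Share of summed peak counts (circles) and nuclear UMIs (squares) in percent, with 95% counting intervals, in 7 clusters drawn without chromosomes 3 and 18. Cluster 2 has the lowest values on chromosome 3 (left, 5.10% and 5.04%) and on chromosome 18 (right, 1.24% and 0.968%).

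In cluster 2 against all other cells, both arms of chromosome 3 were low to a like degree, at 0.831 and 0.826 in peaks and 0.907 and 0.896 in UMIs. On chromosome 18 the short arm had 0.906 (0.890 to 0.922) in peaks and 0.996 (0.971 to 1.02) in UMIs, and the long arm 0.761 (0.752 to 0.769) and 0.823 (0.809 to 0.837). All 20 and all 9 windows had peak intervals under 1, against 46% of all windows, and UMI intervals lay under 1 in 17 and 6 (30.3% of all windows). Of 591 chromosome 3 genes with at least 100 UMIs, 104 were lower and 37 higher, and of 158 chromosome 18 genes 39 and 8, where 7.97% and 14.7% of all 10293 genes were. FHIT, NLGN1 and CLSTN2 were lowest on chromosome 3, each at a ratio of 0.29 to 0.30, and MME (2.56), DCBLD2 (2.01) and GBE1 (1.88) were higher. On chromosome 18 PTPRM (1.71), TYMS (1.43), TUBB6 (1.43) and NDC80 (1.40) were higher. All of them start on the short arm, and TYMS and NDC80 are also genes of the cell cycle lists. These comparisons share their cells with the ranking by chromosome 3.

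The relation held within clusters at a smaller size. With cells ranked inside each cluster, an alternative chosen after the data were seen, the UMI ratio was 0.915 (0.909 to 0.920) on chromosome 3 and 0.905 (0.892 to 0.918) on chromosome 18. Among the 1794 cells with at least 8000 peak counts, those with a chromosome 3 share under 5% (246 cells) had a UMI share of 4.74% (4.69 to 4.80) and a chromosome 18 peak share of 1.24%, and 80.9% of them were in cluster 2. In the 600 cells between 6% and 6.5% these were 5.75%, 1.58% and 4.5%. Within deep cells of cluster 2 (345 cells) the peak shares of chromosomes 3 and 18 correlated at r = 0.331, and outside it at 0.107.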

How the data were processed

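Gene expression and chromatin accessibility were measured in 1 pool of hashed cells, per the labels. The deposited values are unnormalised counts, of UMIs for genes and of transposition events for peaks, in 1 matrix written by Cell Ranger ARC per the file headers. The submitters' processing notes list MACS2, ArchR 1.0.3, the build GRCh38.p10, and version 2.0.0 of both Cell Ranger ARC and Cell Ranger, and the role of each was not stated there. 87.9% of nonzero peak entries were even, so 2 counts were taken as 1 event in intervals. Shares, ratios and exact binomial intervals were computed with Python 3.11.15, numpy 2.4.6, scipy 1.17.1 and pandas 2.3.3, and the scripts were tested on simulated data.

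Clusters came from 30 components and 15 neighbours (igraph 0.11.9, leidenalg 0.10.2, resolution 0.5) without features of chromosomes 3 and 18. No doublets were removed, and leaving out the deepest cells was an alternative. Genes named were BAP1, the 10 with the largest ratio in each direction per chromosome whose interval excluded 1, the 5 with most UMIs, and the lists' leading members. The members and lists were chosen with earlier results of these data known. RefSeq symbols were matched for promoters, and strands of overlapping windows were checked on 222 pairs. Alternatives changed cell limits, group sizes, scaling, filters, windows and clustering. The hashtag library was not analysed here, and values of 1 listed gene are not reported here.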

Additional observations from a re-analysis of the deposited data

How the results depend on the processing

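No paired analysis was possible because the pool is 1 sample with no replicate numbers. The UMI ratios of chromosome 3 and 18 stayed under 1 in every alternative run. In the order chromosome 3, chromosome 18, they were 0.821 and 0.797 at a minimum of 2000 for UMIs and for peak counts, 0.908 and 0.901 with 500, 0.892 and 0.939 with at most 10% mitochondrial UMIs, 0.896 and 0.875 without the deepest 8% of cells, 0.884 and 0.887 without peaks at gene starts, 0.823 and 0.804 for groups of 10%, 0.896 and 0.886 for larger groups, 0.892 and 0.920 ranked by the short arm, and 0.890 and 0.877 by the long arm. Within peak clusters, chosen after seeing the data, they were 0.915 and 0.905, and within gene clusters 0.890 on chromosome 3. Even tiles read in the same settings gave 0.753 and 0.752 (2000), 0.856 and 0.847 (500), 0.846 and 0.856 (10% mitochondrial), 0.852 and 0.841 (without the deepest), 0.832 and 0.829 (no gene starts), 0.730 and 0.727 (groups of 10%), 0.842 and 0.835 (larger groups), 0.881 and 0.859 (peak clusters) and 0.836 and 0.821 (gene clusters). On chromosome 3 they gave 0.822 with each peak counted once and 0.805 without depth bins. Chromosome 18 peaks ranked by chromosome 3 gave 0.809 (2000), 0.897 (500), 0.914 (10% mitochondrial), 0.883 (without the deepest), 0.875 (no gene starts), 0.806 (groups of 10%), 0.885 (larger groups), 0.944 (peak clusters) and 0.883 (gene clusters). The correlation of peak and UMI share was 0.578 and 0.347 (2000), 0.164 and 0.0593 (500), 0.367 and 0.0595 (10% mitochondrial) and 0.283 and 0.122 (no gene starts), and on chromosome 3 it was 0.285 without the deepest cells and 0.310 over all UMIs. That between the chromosomes was 0.322, 0.0490, 0.0519 and 0.0848 in the first 4 of these. Genes called on chromosome 3, 118 in the main setting, were 20 (10% mitochondrial, 1592 cells), 73 (without the deepest), 48 (at least 500 UMIs), 37 (1.5-fold) and 54 (peak clusters), with lower calls more numerous in each. Of genes elsewhere, 15.6% were called in the main setting, lower or higher. In the alternatives, in the same order, 8.22%, 13.0%, 14.1%, 5.38% and 5.73% of them were called. On chromosome 18, 43 became 23 (500), 3 (10% mitochondrial), 25 (without the deepest), 28 (no gene starts), 10 (short arm), 19 (at least 500 UMIs), 12 (1.5-fold) and 17 (peak clusters). The numbers of genes compared on either chromosome under these settings are not given here, so the counts cannot be read as shares. The lowest over the highest cluster share, 0.788 on chromosome 3 and 0.745 on chromosome 18, was 0.797 on chromosome 3 at resolution 1.0, 0.944 and 0.895 at resolution 0.3, and 0.842 and 0.840 for clusters from genes. With at most 10% mitochondrial UMIs a single cluster arose, so no such ratio could be had. The share of windows with a UMI ratio under 1 kept within 1.5 times under every setting run, with 37 of 40 and 16 of 16 at 5 Mb. TMM scaling shifted log2 ratios by 0.06 and 0.03. Over the named genes and these settings, 854 values stayed on their side of the limit for a call and 1 gained a call. In 327 the call was lost or the gene fell under the UMI minimum, where direction was not followed. Of values called in the main setting, 6 crossed 1 with enough UMIs to compare, and crossings of uncalled genes were not counted. The 6 were ALS2CL at 0.97 within peak clusters, OPA1 at 1.04 and MALT1 at 1.35 with at most 10% mitochondrial UMIs, and C18orf21 at 1.07, MBD2 at 1.06 and PSTPIP2 at 1.08 ranked by the short arm. The cause was not tested. Depth limits what single cells show: over the 4 depth classes the correlations were lowest in cells of 1000 to 2000 peak counts.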
